A study of Mus musculus with 12 samples.

Results

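Pde10a and 9 further phosphodiesterase genes that are active in brain were followed through cortex RNA of mice with altered Mir137, the gene of the microRNA miR-137. Pde10a, Pde1a, Pde1b, Pde1c, Pde2a, Pde4b, Pde4d, Pde7b, Pde8b and Pde9a were taken by exact gene name, which gave 10 of the 23951 rows of each deposited table. The C57BL/6 cortex came from mice labelled Het (genotype miR-137/+), KO (genotype miR-137 KO) and WT (wildtype), with 4 libraries per genotype and 12 in all. Neither the age and sex of the mice nor the design of the deleted allele is given in the sources used here. The series' title joins partial loss of Mir137 to repetitive behaviour, sociability and learning through Pde10a, which is the question these comparisons address.

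Phosphodiesterases break down the second messengers cyclic AMP and cyclic GMP and so end the signals that adenylyl and guanylyl cyclases start. The families differ in which messenger they cut and in what switches them on, for instance calcium-bound calmodulin for the Pde1 enzymes and cyclic GMP for Pde2a. In forebrain, Pde10a is known as the phosphodiesterase of striatal projection neurons, where it sets the response to dopamine and adenosine. MicroRNAs lower their targets by pairing bases 2 to 8, the seed, with sites that lie mostly in the 3′ untranslated region (3′ UTR) of a messenger RNA.

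The values are the authors' RPKM, reads scaled by transcript length and by library depth, with 1 value per genotype in each of 3 pairwise tables. The libraries of a genotype are thus pooled: values carry no SD, and library depth is unknown. The words rose and fell are kept for genes whose adjusted p, as the authors' deposited table lists it, was below 0.05, and folds are ratios of RPKM. Sample titles carry paired numbers and the protocol speaks of duplicates, and nothing says that the 4 libraries are separate animals, so the p-values may measure technical spread between libraries only. The row of Mir137 was listed at 0 in all 3 genotypes and checks none of the labels. In the text below, Het values are those set against WT and KO values those set against WT, unless KO is compared with Het, and WT values are those of the table in use or, where 3 genotypes are listed, of Het against WT. The same genotype's value differed between tables by at most 0.683% for Het, 0.599% for KO and 0.0749% for WT over these 10 genes.

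The mature strand of miR-137 and the seed matches in the 3′ UTRs of the phosphodiesterases are shown because the study ties Pde10a to the loss of this microRNA. Capitals mark the seed in the microRNA (RefSeq, GRCm38.p6, chromosome 3) and the matching bases in the sites (GENCODE M21, GRCm38, longest annotated 3′ UTR). All run 5′ to 3′.
mmu-miR-137-3p: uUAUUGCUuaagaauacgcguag
Pde10a site at base 220: cttgcttgggcttccgtAGCAATAcac
Pde10a site at base 6478: ttgtaaagtgcgcaagtGCAATAAttt
Pde1a site at base 1325: caggttcctcaaggctaAGCAATAttt
Pde1b site at base 1568: ttgcctccaagtttctaAGCAATAcat

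Of the 10 genes, 3 held a match of at least 7 bases, searched on the sense strand as AGCAATA (pairing with the whole seed) or GCAATAA (pairing with 6 seed bases, with an A after them). Pde10a, with a 3′ UTR of 6874 nt, held 1 of each kind, Pde1a (2515 nt) and Pde1b (2486 nt) held 1 AGCAATA each, and none held the longer AGCAATAA. Pde7b, Pde4b, Pde4d, Pde2a, Pde8b, Pde9a and Pde1c held none in these windows, which range from 1581 nt in Pde9a to 6404 nt in Pde1c. Such matches are frequent in long 3′ UTRs. Of 376 genes of at least 1 RPKM with a 3′ UTR between 0.8 and 1.25 times as long as that of Pde10a, 46.8% had at least 1, and for Pde1a and Pde1b the shares were 22.6% and 22.4%. Over all 12406 such genes with an annotated 3′ UTR the share was 16.7%. A match is a description of the sequence and not a measured site.

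In WT cortex the order of the levels ran from Pde2a, an enzyme of both messengers that cyclic GMP switches on, at 91.2 RPKM in the authors' deposited table, down to the calmodulin-activated Pde1c at 1.18 RPKM. Pde1a (65.2 RPKM), Pde1b (31.3), the cyclic AMP enzyme Pde4b (25.3) and Pde10a (12.7) followed Pde2a in the authors' deposited table. Pde8b (11.5 RPKM), Pde9a (10.6), Pde4d (8.81) and Pde7b (3.46) stood below Pde10a in WT (the authors' deposited table). Pooled values give no spread with which to separate neighbours such as Pde10a, Pde8b and Pde9a. In both mutant genotypes Pde1b stood above Pde1a and Pde10a above Pde4b, an order opposite to that in WT. Every described gene had at least 1 RPKM in a genotype of each comparison, so all 10 passed the minimum level. Exons of Pde2a, Pde8b and Pde9a overlap annotated genes that have no entry in the tables, and the library kit does not mark strand, so their values may include such reads.

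**Figure D1:**
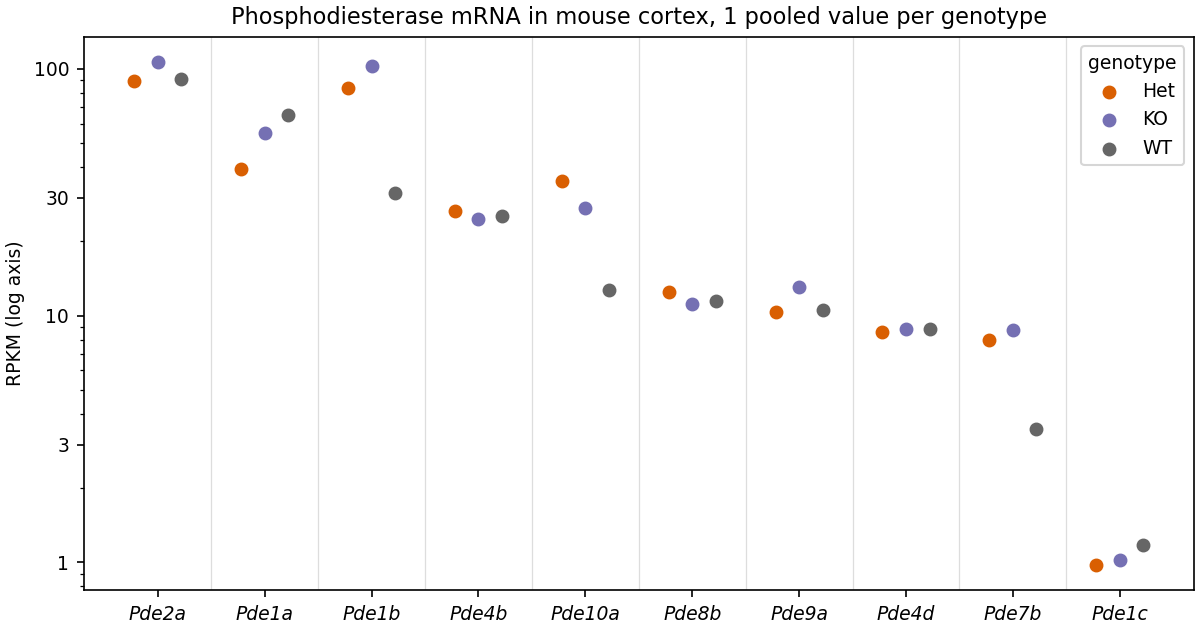
RPKM of the 10 phosphodiesterases (log axis), 1 pooled value per genotype and no error bars, with genes ordered by their WT level. Pde10a, Pde1b and Pde7b lie higher in Het and KO than in WT, and Pde1a is lowest in Het at 39.1 RPKM.

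Heterozygous cortex had more mRNA of the 3 phosphodiesterases Pde10a, Pde1b and Pde7b than WT and less of Pde1a, and the other 6 did not pass the test. Pde10a stood at 35.2 RPKM in Het and 12.7 in WT (the authors' deposited table), 2.78-fold higher. Only 45 of 13561 genes tested at 1 RPKM or more had a larger log2 difference. Pde1b, the calmodulin-activated enzyme also abundant in striatum, reached 83.7 RPKM in Het against 31.3 in WT, 2.67-fold higher in the authors' deposited table. Pde7b, a cyclic AMP enzyme, stood at 7.97 RPKM in Het and 3.46 in WT, 2.30-fold higher in the authors' deposited table. Pde1a, the close relative of Pde1b, fell to 39.1 RPKM in Het against 65.2 in WT, 1.67-fold lower in the authors' deposited table. All 4 genes shared an adjusted p of 0.00135, below which the authors' deposited table lists none for this comparison. Of the 10 genes 3 rose and 1 fell, where 4% of all tested genes of at least 1 RPKM rose, 5.13% fell and 9.13% did either. The median difference in log2(RPKM + 1) was 0.02 over the 10 genes and 0.01 over all tested genes. Cortex is a mixture of cell types, and more cells of a type cannot be told apart here from more mRNA per cell.

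The phosphodiesterases that did not pass lay close to WT in Het. Pde2a had 89.6 RPKM in Het and 91.2 in WT (adjusted p 0.962 in the authors' deposited table). Pde4b had 26.4 RPKM in Het and 25.3 in WT (adjusted p 0.873 in the authors' deposited table), and Pde4d, of the same cyclic AMP family, 8.58 in Het and 8.81 in WT (adjusted p 0.934). Pde8b, a cyclic AMP enzyme of high affinity, had 12.4 RPKM in Het and 11.5 in WT, with an adjusted p of 0.714 in the authors' deposited table. Pde9a, which cuts cyclic GMP alone, had 10.3 RPKM in Het and 10.6 in WT (adjusted p 0.962 in the authors' deposited table). Pde1c, the lowest gene, had 0.975 RPKM in Het against 1.18 in WT (adjusted p 0.621 in the authors' deposited table). Their ratios of Het to WT thus ran between 0.826 for Pde1c and 1.08 for Pde8b, all below those of the genes that rose.

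Knockout cortex also had more Pde10a, Pde1b and Pde7b mRNA than WT, and Pde1a did not pass. The authors' deposited table gave Pde10a 27.3 RPKM in KO and 12.7 in WT, 2.15-fold higher. Pde1b had the larger change, at 103 RPKM in KO against 31.3 in WT, 3.28-fold higher in the authors' deposited table, and 23 of 13532 tested genes exceeded its log2 difference. Pde7b stood at 8.71 RPKM in KO and 3.46 in WT (the authors' deposited table), 2.52-fold higher. All 3 shared an adjusted p of 0.000987, below which the authors' deposited table lists none for KO against WT. Of the 10 genes 3 rose and none fell, where 6.88% of all tested genes rose, 7.72% fell and 14.6% did either. The median log2 difference was 0.11 over the 10 genes and 0.01 over all tested genes. Pde1a had 55.0 RPKM in KO and 65.2 in WT (adjusted p 0.189 in the authors' deposited table).

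Among the genes not called in KO, Pde2a had 107 RPKM in KO and 91.2 in WT (adjusted p 0.242 in the authors' deposited table) and Pde9a 13.03 in KO and 10.6 in WT (adjusted p 0.173). Pde4b (24.7 RPKM in KO, 25.3 in WT), Pde4d (8.86 in KO, 8.82 in WT) and Pde8b (11.1 in KO, 11.5 in WT) had adjusted p-values of 0.899, 0.986 and 0.891 in the authors' deposited table. Pde1c had 1.03 RPKM in KO and 1.18 in WT (adjusted p 0.612 in the authors' deposited table). Both comparisons with WT use the same WT libraries, so the like direction of Pde10a, Pde1b and Pde7b in Het and KO is not independent evidence.

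**Figure D2:**
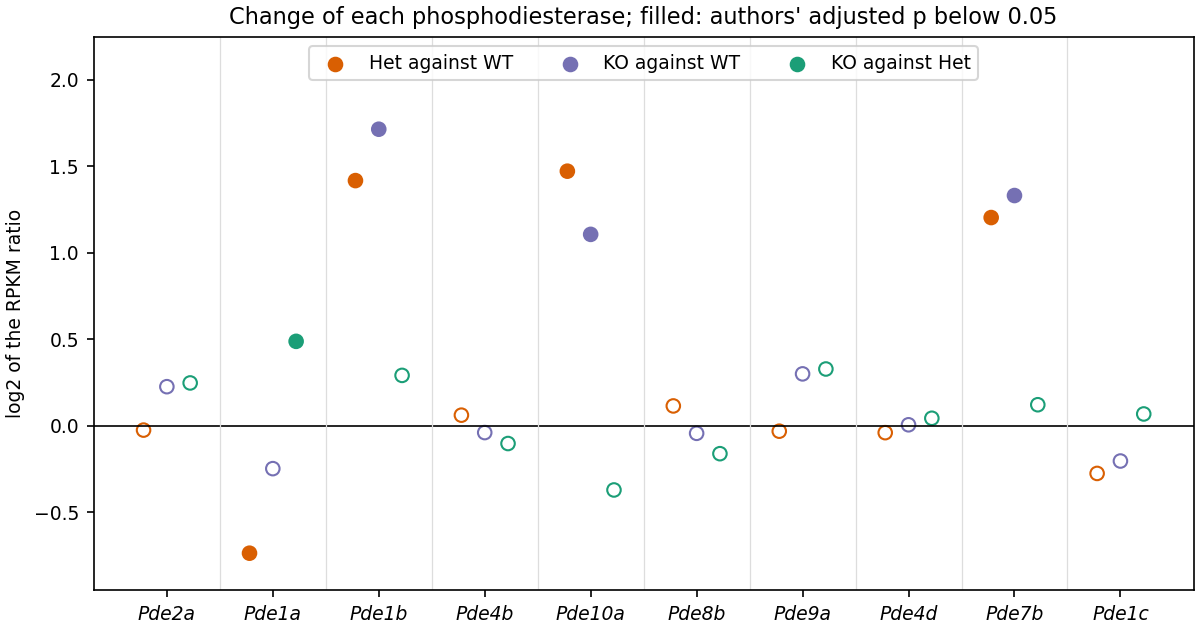
Log2 of the RPKM ratio for each phosphodiesterase in the 3 comparisons, with filled points where the authors' adjusted p was below 0.05. Filled points above 0 are Pde10a, Pde1b and Pde7b against WT and Pde1a in KO against Het, and the filled point below 0 is Pde1a in Het against WT.

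Knockout was then compared with Het directly, which tests whether the 2 mutant genotypes differ. Of the 10 phosphodiesterases 1 was higher in KO and none lower, where 0.939% of all tested genes were higher, 0.983% lower and 1.92% either. Pde1a was higher in KO, at 55.3 RPKM against 39.4 in Het, a ratio of 1.403 (adjusted p 0.00879 in the authors' deposited table). This call is lost where an absolute log2 difference of at least 0.5 is also asked for, since that of Pde1a was 0.48. Oligodendrocyte markers also differed here, 8 of 10 being lower in KO, with summed RPKM of 922 in KO and 1598 in Het, and their part in the Pde1a value was not tested. Pde10a stood at 27.4 RPKM in KO and 35.4 in Het, a ratio of 0.773 (adjusted p 0.326, unadjusted p 0.0187 in the authors' deposited table). Pde1b leaned the other way, with 103 RPKM in KO and 84.2 in Het (adjusted p 0.532 in the authors' deposited table), and Pde7b had 8.73 RPKM in KO and 8.02 in Het (adjusted p 0.939). A difference between KO and Het in Pde10a, Pde1b or Pde7b was therefore not shown, and the deposited values allow no interval for it.

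Expressed as a difference from WT, Pde10a was higher by 22.5 RPKM in Het and by 14.6 in KO, computed from the authors' deposited tables. The difference for Pde1b was 52.4 RPKM in Het and 71.5 in KO, and for Pde7b 4.51 in Het and 5.25 in KO. Pde10a alone of these 3 had a smaller difference from WT in KO than in Het. Its ratio to Pde1b was 0.420 in Het, 0.266 in KO and 0.405 in WT. The ratio of Pde1b to Pde1a was 2.14 in Het, 1.87 in KO and 0.480 in WT, so the balance between the calmodulin-activated pair was reversed in both mutant genotypes. These ratios come from pooled values and carry no error.

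The described genes make up most of the phosphodiesterase mRNA. Summed over all 24 genes that carry the family name, RPKM was 394 in Het, 437 in KO and 335 in WT. That sum includes Pde6d, a carrier of lipid-modified proteins, at 47.2 RPKM in Het, 41.5 in KO and 39.9 in WT. The 3 that rose held 32.2% of that sum in Het, 31.8% in KO and 14.2% in WT. Pde10a alone accounted for 8.92% in Het, 6.25% in KO and 3.79% in WT. Pde1a accounted for 9.92% in Het, 12.6% in KO and 19.5% in WT. The 6 genes called in no comparison summed to 148 RPKM in Het, 165 in KO and 149 in WT. Sums of mRNA say nothing of enzyme activity, which differs between the families.

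**Figure D3:**
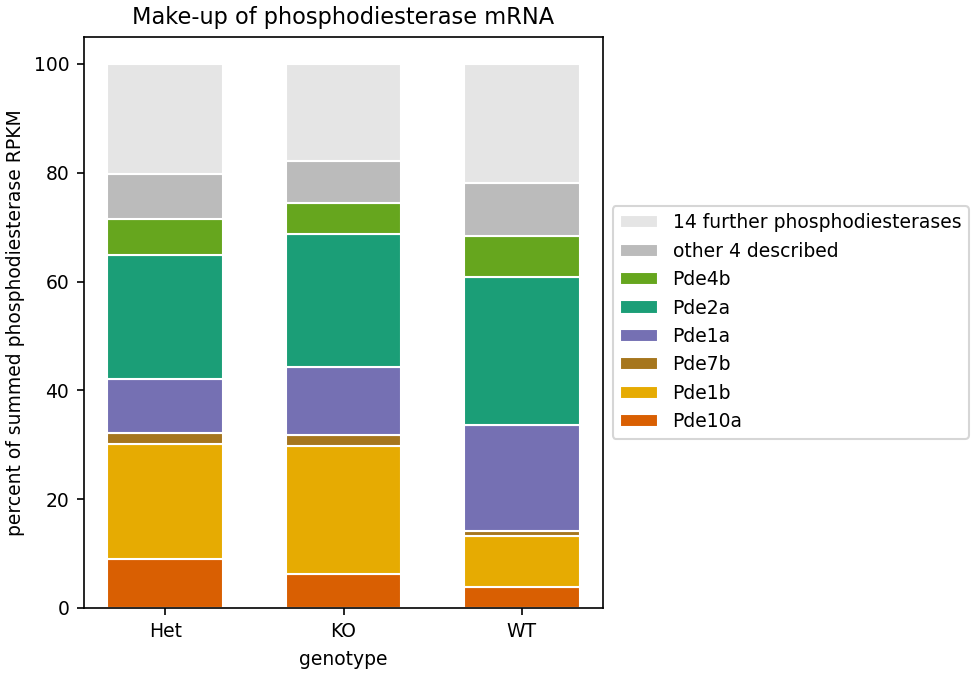
Percent of the summed RPKM of 24 phosphodiesterase genes taken by each gene or group, by genotype. Pde10a, Pde1b and Pde7b together take 32.2% in Het, 31.8% in KO and 14.2% in WT, while Pde1a takes 19.5% in WT.

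Of the 14 other phosphodiesterase genes, 8 reached 1 RPKM in at least 1 genotype. The remaining 6 (Pde4c and the photoreceptor genes Pde6a, Pde6b, Pde6c, Pde6g and Pde6h) lay between 0.0134 and 0.403 RPKM in the comparisons with WT. None of the 8 passed in Het against WT in the authors' deposited table, with 1 at an unadjusted p below 0.05. In KO against WT 1 of the 8 was called. Over all tested genes of at least 1 RPKM, 9.13% were called in Het and 14.6% in KO. The counts of the 8 lie near those shares. Pde11a, which cuts both messengers, fell in KO to 0.678 RPKM against 1.22 in WT, 1.80-fold lower (adjusted p 0.0383 in the authors' deposited table), and was listed at 0.660 RPKM in Het (adjusted p 0.0920). The Pde11a call does not hold with an adjusted p below 0.01, with a log2 difference of 0.5 or with adjustment over the 3 comparisons together.

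The other measured phosphodiesterases did not pass the test. Pde7a, the relative of Pde7b, had 7.37 RPKM in Het, 6.74 in KO and 6.52 in WT (adjusted p 0.509 for Het and 0.880 for KO in the authors' deposited table). Pde6d, a carrier of lipid-modified proteins named after the photoreceptor enzyme, had 47.2 RPKM in Het, 41.5 in KO and 39.9 in WT (adjusted p 0.297 for Het and 0.860 for KO in the authors' deposited table). Pde4a, whose 3′ UTR holds an AGCAATAA and a further AGCAATA, had 14.6 RPKM in Het, 18.7 in KO and 15.7 in WT (adjusted p 0.766 for Het and 0.170 for KO in the authors' deposited table). Pde3b, a cyclic AMP enzyme that cyclic GMP inhibits, had 5.47 RPKM in Het, 5.36 in KO and 5.18 in WT (adjusted p 0.861 for Het and 0.888 for KO in the authors' deposited table). Pde3a, Pde5a and Pde8a lay between 0.955 and 1.79 RPKM in all genotypes, with adjusted p-values of 0.695 or more in both comparisons in the authors' deposited table. Pde3a and Pde7a hold 2 matches and 1 match of AGCAATA in their 3′ UTRs. Among genes with a 3′ UTR of similar length, the share with at least 1 match was 18.0% for Pde4a, 56.1% for Pde3a and 36.9% for Pde7a. Over all genes of at least 1 RPKM with an annotated 3′ UTR, 4.71% held an AGCAATAA.

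The cyclases make cyclic AMP and cyclic GMP. Of 14 measured genes, 3 rose and 2 fell in Het, 2 rose and 3 fell in KO, with 9 not called in each comparison, where 9.13% of all tested genes were called in Het and 14.6% in KO. With a log2 difference of at least 0.5 the calls numbered 3 in Het and 3 in KO, and at an adjusted p below 0.01 they numbered 3 in Het. Their median difference in log2(RPKM + 1) was -0.10 in Het and -0.04 in KO, where that of all tested genes was 0.01 in each. Adcy5, the main adenylyl cyclase of striatum, stood at 39.3 RPKM in Het, 42.4 in KO and 23.7 in WT (adjusted p 0.00135 for Het and 0.000987 for KO in the authors' deposited table). Gucy1a3, a subunit of the nitric oxide receptor that makes cyclic GMP, stood at 21.4 RPKM in Het, 21.5 in KO and 11.6 in WT, with the same adjusted p-values in the authors' deposited table. Its partner subunit Gucy1b3 rose in Het, at 80.4 RPKM against 64.4 in WT (adjusted p 0.0449 in the authors' deposited table). Gucy1a2, the other alpha subunit, fell in KO, at 5.58 RPKM against 8.17 in WT (adjusted p 0.000987 in the authors' deposited table). Adcy9, a broadly expressed adenylyl cyclase, fell to 11.1 RPKM in Het and 10.01 in KO, against 16.3 in WT (the authors' deposited table). The natriuretic peptide receptor Npr1 fell in KO, at 1.01 RPKM against 1.57 in WT (adjusted p 0.0349 in the authors' deposited table).

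Among 16 measured effectors of cyclic nucleotides, 1 rose and 1 fell in Het, and 2 rose and 1 fell in KO, with median log2 differences of -0.03 in Het and -0.01 in KO. These counts lie near the shares of all tested genes, 9.13% in Het and 14.6% in KO, and the KO count was 1 at an adjusted p below 0.01 or with a log2 difference of at least 0.5. Prkar2b, the regulatory subunit of protein kinase A that is enriched in striatum, stood at 39.0 RPKM in Het, 35.9 in KO and 24.9 in WT (adjusted p 0.00135 for Het and 0.000987 for KO in the authors' deposited table). Its relative Prkar2a fell in KO, at 13.9 RPKM against 17.7 in WT (adjusted p 0.0467 in the authors' deposited table). Hcn2, a pacemaker channel that cyclic nucleotides gate, rose in KO, at 35.6 RPKM against 27.7 in WT (adjusted p 0.0303 in the authors' deposited table).

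Substrates of protein kinase A and genes downstream of it included 4 of 16 that rose in Het. In KO, 4 rose and 1 fell, and the median log2 differences were 0.08 in Het and 0.04 in KO. Over all tested genes 9.13% were called in Het and 14.6% in KO. With a log2 difference of at least 0.5 the calls among the 16 numbered 2 in Het and 1 in KO, and at an adjusted p below 0.01 they numbered 3 in KO. Ppp1r1b, Arpp21 and Ptpn5 are also on the list of striatal markers, as is the cyclase gene Adcy5, and so enter both counts. Ppp1r1b, which encodes the phosphatase inhibitor DARPP-32 that Pde10a activity controls in striatum, stood at 172 RPKM in Het, 179 in KO and 20.6 in WT, 8.35-fold and 8.67-fold higher in the authors' deposited tables. The ratio of Pde10a to Ppp1r1b was 0.205 in Het, 0.153 in KO and 0.615 in WT. The related inhibitor Ppp1r1a stood at 96.8 RPKM in Het, 101 in KO and 71.6 in WT (adjusted p 0.00520 for Het and 0.000987 for KO in the authors' deposited table). Arpp21, a phosphoprotein regulated by cyclic AMP, stood at 120 RPKM in Het, 96.7 in KO and 73.8 in WT (adjusted p 0.00135 for Het and 0.0196 for KO in the authors' deposited table). Arpp19 rose in Het, at 39.0 RPKM against 28.1 in WT (adjusted p 0.00135 in the authors' deposited table). In KO the striatum-enriched phosphatase Ptpn5 rose to 69.9 RPKM against 52.2 in WT (adjusted p 0.00386), and the CREB coactivator Crtc1 fell to 24.3 against 30.8 (adjusted p 0.0370), in the authors' deposited table.

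Partners that hold phosphodiesterases in place or activate them numbered 18 measured genes, of which 1 rose and 2 fell in Het and 2 rose and 1 fell in KO. The KO count lies near the share of all tested genes, 14.6%, and the small Het count is above its share of 9.13%. With a log2 difference of at least 0.5 the counts were 1 in Het and 0 in KO. Median log2 differences were 0.03 in Het and 0.04 in KO. The kinase A anchor gene Akap9 was 1.31-fold higher in Het and 1.41-fold higher in KO, with 8.39 RPKM in WT (adjusted p 0.00841 for Het and 0.00254 for KO in the authors' deposited table). Akap13 fell to 5.75 RPKM in Het and 6.07 in KO, against 8.15 in WT (adjusted p 0.00135 for Het and 0.00560 for KO in the authors' deposited table). Akap12 fell in Het, at 6.80 RPKM against 11.7 in WT (adjusted p 0.00135 in the authors' deposited table). Gnb2l1, whose product RACK1 binds a Pde4d isoform, rose in KO, at 309 RPKM against 245 in WT (adjusted p 0.0418 in the authors' deposited table).

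**Figure D4:**
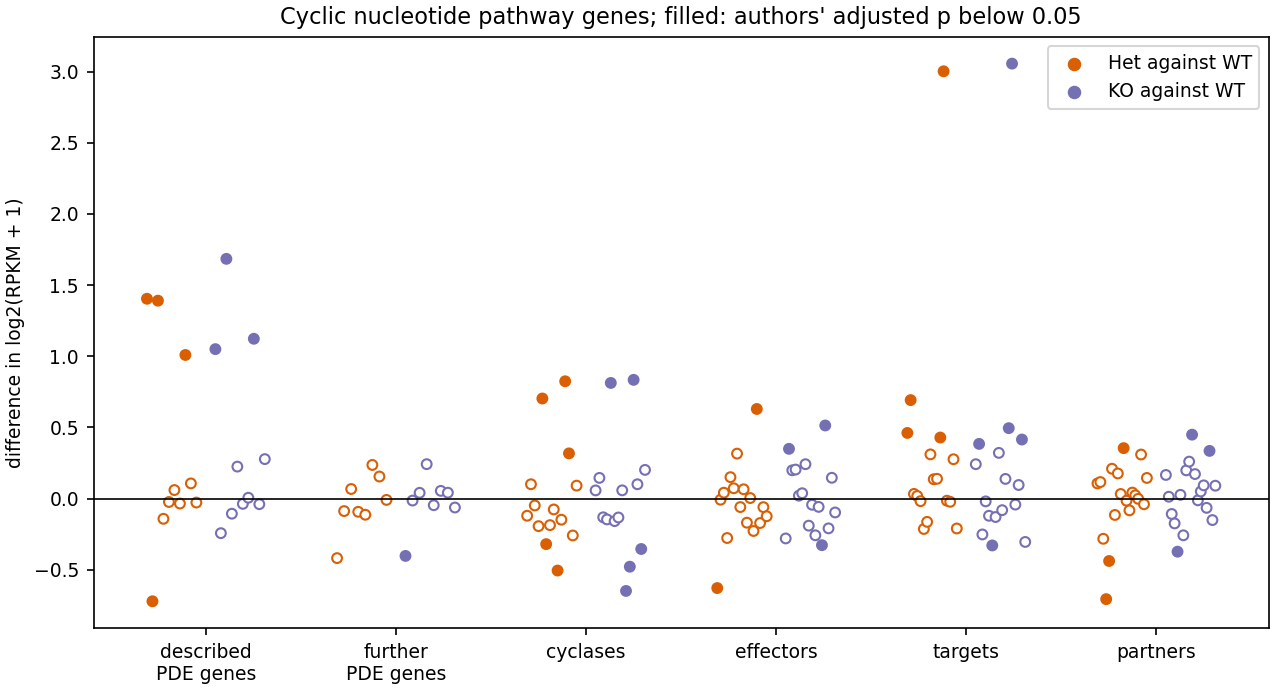
Difference in log2(RPKM + 1) for each measured gene of 6 groups of the cyclic nucleotide pathway, for Het against WT and KO against WT, with filled points where the authors' adjusted p was below 0.05. Most points lie near 0, and the highest pair, in the group of targets, is Ppp1r1b at 8.35-fold and 8.67-fold.

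Markers of striatal projection neurons moved with Pde10a, Pde1b and Pde7b. Among all tested genes 4% rose in Het and 6.88% in KO. Of 26 markers, none of them a phosphodiesterase, 24 rose in Het and 25 in KO, and none fell. Their summed RPKM was 1073 in Het, 1108 in KO and 413 in WT, and none was listed at 0. In the authors' deposited tables Adora2a was 19.0-fold higher in Het and 22.6-fold in KO, Penk 11.2-fold in Het and 10.2-fold in KO, Scn4b 8.83-fold in Het and 9.91-fold in KO, and Rgs9 5.50-fold in Het and 8.95-fold in KO. In KO against Het none of the 26 passed in the authors' deposited table, where only 1.92% of all tested genes did. An unadjusted p below 0.05 was listed for 6 of the 26, and the share of all genes at that level was not computed. The markers' median ratio was 3.69 in Het and 3.79 in KO. Of the 26, 16 had a larger fold than Pde10a in Het and 18 in KO, and 13 exceeded Pde1b in KO. The part of striatal tissue or cells in the rise of Pde10a was not tested.

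**Figure D5:**
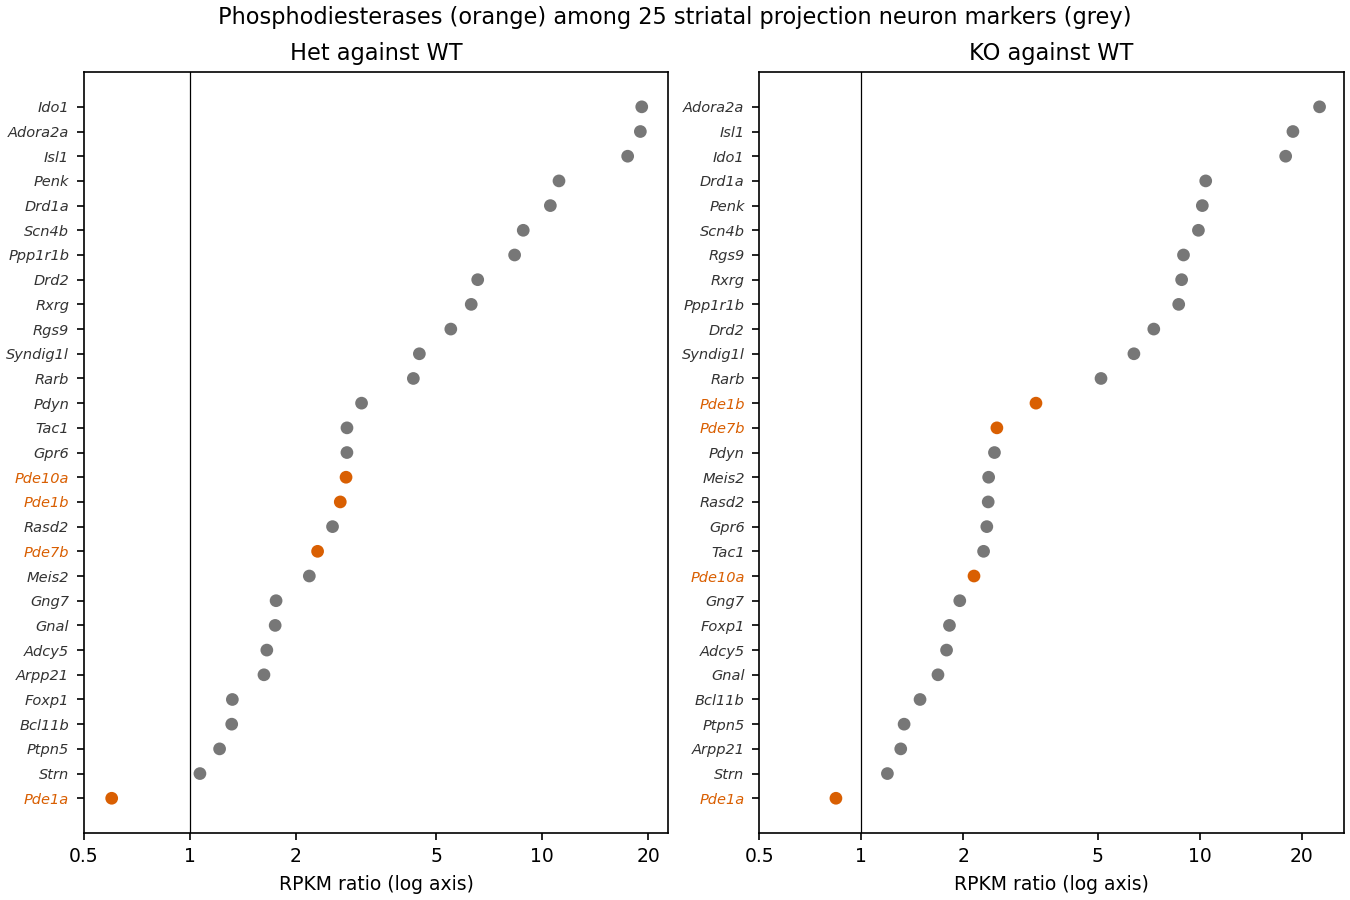
RPKM ratio (log axis) of 25 of the 26 striatal projection neuron markers in grey and of Pde10a, Pde1b, Pde7b and Pde1a in orange, for Het against WT on the left and KO against WT on the right. Pde10a, Pde1b and Pde7b sit inside the range of the plotted markers, and Pde1a lies below all of them.

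The genes most like Pde10a were sought by the distance between pairs of log2 differences (Het against WT, KO against WT) among 12886 other genes of at least 1 RPKM in all 3 genotypes. The nearest was Tac1, the substance P precursor of direct-pathway striatal neurons, at a distance of 0.087, with 33.1 RPKM in Het, 27.3 in KO and 11.9 in WT. Pdyn, the dynorphin precursor, followed at 0.103, with 14.3 RPKM in Het, 11.5 in KO and 4.66 in WT. Tiam2, a Rac exchange factor, lay at 0.150, Rasd2, a small GTPase of striatum, at 0.183, and Cyp26b1, an enzyme that clears retinoic acid, at 0.215. Tac1, Pdyn and Rasd2 are also on the list of striatal markers. The genes nearest Pde1a were the noncoding RNA Meg3 at 0.037, the NMDA receptor subunit gene Grin2b at 0.038 and the copine Cpne2 at 0.048. Meg3 had 229 RPKM in Het, 323 in KO and 374 in WT, and Grin2b 5.60 in Het, 8.02 in KO and 9.60 in WT, in the authors' deposited tables. Meg3 passed in neither comparison with WT (adjusted p 0.0710 for Het and 0.662 for KO in the authors' deposited tables). Grin2b and Cpne2 fell in Het (adjusted p 0.00135 each) and did not pass in KO (0.167 and 0.107). Likeness rests on 3 pooled values per gene, of which WT enters both differences.

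Markers of other cell types and regions give the setting of these values. The counts below stand beside shares of all tested genes. Those shares were 4% that rose and 5.13% that fell in Het, and 6.88% and 7.72% in KO. None of 15 cortical excitatory neuron markers was at 0, and Slc17a7, the vesicular glutamate transporter, stood at 484 RPKM in Het, 393 in KO and 574 in WT (adjusted p 0.414 for Het and 0.000987 for KO in the authors' deposited table). Of those 15, 3 rose and 1 fell in Het and 2 rose and 2 fell in KO, and Nrn1 fell in KO, at 86.7 RPKM against 135 in WT (the authors' deposited table). Choroid plexus markers fell in 9 of 10 in both genotypes, with summed RPKM of 295 in Het, 91.0 in KO and 2082 in WT, almost all of it Ttr. Thalamic markers fell in 4 of 8 in Het and 6 of 8 in KO, with Tcf7l2 at 1.99 RPKM in Het, 1.62 in KO and 7.63 in WT (the authors' deposited table)s. Hippocampal markers rose in 3 of 10 and fell in 2 in Het, and 2 fell in KO, where Wfs1 stood at 20.9 RPKM against 38.5 in WT. Interneuron markers numbered 1 higher and 2 lower of 10 in each genotype, with sums of 639 RPKM in Het, 705 in KO and 699 in WT. Calb2 is on both the thalamic and the interneuron list, fell in Het and in KO, and so enters both counts. Microglial markers numbered 3 higher and 3 lower of 10 in each, with sums of 352 RPKM in Het, 346 in KO and 416 in WT. Of 8 endothelial markers 3 fell in Het, and 1 rose and 2 fell in KO. Of 8 astrocyte markers 1 rose and 1 fell in Het and none was called in KO. Oligodendrocyte markers rose in 2 of 10 in Het and fell in 3 of 10 in KO, with sums of 1588 RPKM in Het, 918 in KO and 1161 in WT. No listed marker of these types was at 0. Their part in the values of the phosphodiesterases was not tested.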

How the data were processed

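RNA from cortex of 12 mouse libraries, 4 each of Het, KO and WT, was sequenced with TruSeq v2 libraries, per the labels' protocols. Build mm9, Cuffdiff 2.2.1, TopHat2 2.0.13 and CASAVA 1.4 are listed per the submitters' processing notes, without their roles. The annotation is not given in the sources used here. The authors deposited 3 tables of RPKM, each genotype having a single value, per the file headers. The deposited p-values and adjusted p-values come from the authors' own test. The adjusted values differ by at most 7.1e-05 from a Benjamini-Hochberg adjustment over genes with p below 1, so genes with p of 1 were taken as untested. The deposited log2 column holds spreadsheet errors and was not used. No column was left unmapped (0).

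No test was run here, since pooled values carry no spread; calls are the authors' adjusted p below 0.05 with at least 1 RPKM in either genotype. Log2 differences use log2(RPKM + 1). The genes described, the 16 lists and the settings were chosen with earlier results of these data known. Named genes are all 10 described and other phosphodiesterases of at least 1 RPKM; up to 6 called genes per pathway list and of striatal markers and 2 per other list, by smallest adjusted p and then largest log2 difference; and the 5 and 3 genes nearest Pde10a and Pde1a. Low phosphodiesterases were named besides, and some genes that the rule selects are not reported here. 3′ UTRs came from GENCODE M21 transcripts joined by gene name. They covered 90.3% of 13736 genes of at least 1 RPKM. The adjustment, the calls and the search for nearest genes were tested on simulated data, and the 3′ UTR steps were not. Software was Python 3.11.15 with pandas 2.3.3, numpy 2.4.6, matplotlib 3.10.9 and scipy 1.17.1.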

Additional observations from a re-analysis of the deposited data

Results flagged for a closer look

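Pde1a differed between the mutant genotypes, with a log2 difference of 0.48 for KO over Het (adjusted p 0.00879 in the authors' deposited table); it fell in Het and did not pass in KO against WT. Among the pathway genes, Akap12 also had more mRNA in KO than in Het, by a log2 difference of 0.53 (adjusted p 0.00517 in the authors' deposited table). Hcn4, a pacemaker channel outside the naming rule that was picked after its values were seen, also passed this test, at a log2 difference of 0.48 and a ratio of 1.78. The Hcn4 call was lost under a minimum of 5 RPKM, an adjusted p below 0.01 or a log2 difference of at least 0.5. Among marker genes, the hippocampal marker Fibcd1 was higher in KO by 0.73 on the log2 scale. It was the exception in its list. Of 10 hippocampal markers 1 was higher in KO than in Het and 2 were lower, with a median log2 difference of -0.26. Lower in KO than in Het were the choroid plexus genes Ttr, at -1.75, and Folr1, at -0.80, the oligodendrocyte genes Mal, at -0.84, and Cnp, at -0.52, and Aqp4 of astrocytes, at -0.49. The same direction was seen for the hippocampal marker Wfs1, at -0.70, for Nrn1, at -0.59, and for Zic1, at -0.57. Apart from Hcn4, these 11 are genes that the naming rule selects and that passed the authors' test of KO against Het, which uses the libraries of both mutant genotypes and none of WT.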

How the results depend on the processing

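The counts of phosphodiesterases called against WT, 4 in Het and 3 in KO, were 4 and 3 under a minimum of 5 RPKM, no minimum, an adjusted p below 0.01, a log2 difference of at least 0.5 and adjustment over the 3 comparisons together. In KO against Het the count of 1 became 0 with a log2 difference of at least 0.5, because Pde1a changed by 0.48. Over all genes, an adjusted p below 0.01 gave 767 calls for Het against WT (1238 as reported), 1124 for KO against WT (1975) and 159 for KO against Het (258). A log2 difference of at least 0.5 gave 653 calls for Het and 894 for KO against WT, and adjustment over the 3 comparisons together 425 for KO against Het. Pseudocounts of 0.1 and 0.01, recentred values and genotype values from the other table turned 2 signs near 0: Pde4d in KO against WT became -0.00286 when recentred, and Hcn2 in Het against WT became 0.000206 with values of the other table. Neither was called. For named genes, the pseudocounts, recentring and values of the other table were checked for the sign alone. An adjusted p below 0.01, a log2 difference of at least 0.5 and the joint adjustment were checked for call status alone. Among phosphodiesterases 373 such checks were unchanged and 4 lost a call. Among other genes 861 were unchanged, 40 lost a call and 1 gained one. Unchanged checks include genes that were never called. No paired analysis was possible because the tables hold 1 pooled value per genotype, and for the same reason no replicate could be left out. Depth per library is unknown, so genes near 1 RPKM, such as Pde1c, Pde3a and Pde11a, are the least certain.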

Other observations

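No phosphodiesterase below passed the adjusted threshold, and the 3 genes were picked after their values were seen. Pde4a stood at 18.8 RPKM in KO and 14.7 in Het (unadjusted p 0.00835, adjusted p 0.205 in the authors' deposited table), and 18.7 in KO and 15.7 in WT (unadjusted p 0.0432, adjusted p 0.170). Pde9a stood at 13.1 RPKM in KO and 10.4 in Het (unadjusted p 0.0347, adjusted p 0.438 in the authors' deposited table), and 13.03 in KO and 10.6 in WT (unadjusted p 0.0442, adjusted p 0.173). For Pde2a the unadjusted p was 0.0661 in KO against Het and 0.0739 in KO against WT in the authors' deposited tables. Both comparisons use the same KO libraries. Others of the family had a ratio of KO to WT below 1 in the authors' deposited table, among them Pde4b at 0.973, Pde8b at 0.971, Pde8a at 0.926 and Pde1c at 0.869.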
